A study of Mus musculus and Bos taurus with 2 samples.

Results

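The 8 genes described here write, maintain or remove methyl groups on cytosine in DNA: Dnmt1, Uhrf1, Dnmt3a, Dnmt3b, Dnmt3l, Tet1, Tet2 and Tet3. They were found by gene name, ignoring case, among transcript models that lie on the same strand as a reference gene and overlap its exons. Models of all 8 were found among 14090 named genes of the mouse library, where 52.2% of 21992 GENCODE protein-coding gene names had one. Models of 7 were found among 13374 named genes of the bovine library. Bovine DNMT3L was not assembled. A transcript model is a chain of exons that the authors assembled from nanopore reads of full-length cDNA.

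The mouse library came from embryos at the late 2-cell stage, 36 h after insemination, made by in vitro fertilization of oocytes from superovulated Slc:ICR mice and grown in KSOM medium. The bovine library came from embryos at the 8-cell to 16-cell stage, 72 h after insemination, from oocytes of Japanese Black cows or Japanese Black × Holstein F1 cows that were matured in vitro and fertilized with sperm of a Japanese Black bull. Each library pooled about 200 embryos. With 1 library for each species there is no replicate error, and no difference between the libraries was tested. Species, stage, hours and reference annotation differed together and cannot be told apart. The mouse library held 42028 models and the bovine library 40819. The files carry no read counts, so depth is unknown and the number of models is not an expression level. Oocyte and embryo markers (Zp3, Gdf9, Bmp15, Zar1 and Nlrp5) had models for 5 of 5 genes in each library, cumulus and granulosa markers for 3 of 8 in each, and sperm markers for 2 of 5 in each. Of the cumulus and granulosa markers, Tnfaip6 had 2 models in mouse and 3 in bovine, Fshr and Inha had 1 each in mouse, and HAS2 and VCAN had 3 each in bovine. Ptx3, Amh and Cyp19a1 had none in either library. The part of these other cells in the results below was not tested.

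In mammals, DNMT1 copies methylation onto the new strand after DNA replication, and UHRF1 brings it to sites methylated on the old strand only. DNMT3A and DNMT3B methylate unmethylated DNA, and DNMT3L, which has no catalytic activity of its own, assists them in germ cells. The TET enzymes oxidize 5-methylcytosine and so start its removal. Much of the parental methylation is lost during the first cleavages. Several of these genes are known in mouse to use other first exons in oocytes than in somatic cells. The first exon of a model can show which form was assembled only where its 5′ end is complete, which was not checked.

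Mouse members had 28 models in all and bovine members 21. Of these, 8 in mouse and 7 in bovine matched the intron chain of a reference transcript exactly. A further 15 in mouse and 12 in bovine shared a splice junction with a reference transcript but differed in structure, 4 and 2 were contained within a reference transcript, and 1 mouse model overlapped its exons only. An exact match was present for 4 of 8 mouse members (Dnmt1, Dnmt3b, Dnmt3l and Uhrf1), against 72.5% of all mouse genes with a model. In bovine it was present for 5 of 7 (DNMT1, DNMT3A, UHRF1, TET1 and TET3), against 65.5% of all bovine genes with a model. Dnmt3a, Tet1 and Tet3 had an exact match in bovine alone, Dnmt3b and Dnmt3l in mouse alone, and Tet2 in neither.

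The median number of models per found member was 3 in mouse and 2 in bovine, beside a median of 2 over all genes in each library. At least 2 models were found for 7 of 8 mouse members, against 51.2% of all mouse genes, and for 5 of 7 bovine members, against 57.9% of all bovine genes. At least 4 models were found for 4 of 8 in mouse (Dnmt3l, Uhrf1, Dnmt3a and Tet3), against 16.5% of all genes, and for 3 of 7 in bovine (DNMT1, TET3 and TET1), against 21.1%. Models that began at 2 or more separate start groups, as assigned in the files, were found for 5 of 8 mouse members, against 26.5% of all genes, and for 5 of 7 bovine members, against 33.9%. The gene with most models was Dnmt3l in mouse, with 7, a number that 3.37% of mouse genes reached. In bovine it was DNMT1, with 6, a number that 8.01% of bovine genes reached. The member models had a median of 6.5 exons and a spliced length of 2828 bp in mouse, beside 7 exons and 1972 bp over all models of genes. In bovine the medians were 12 exons and 3922 bp, beside 6 exons and 1824 bp over all models of genes. Gene length and exon number were not allowed for in these comparisons.

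**Figure D1:**
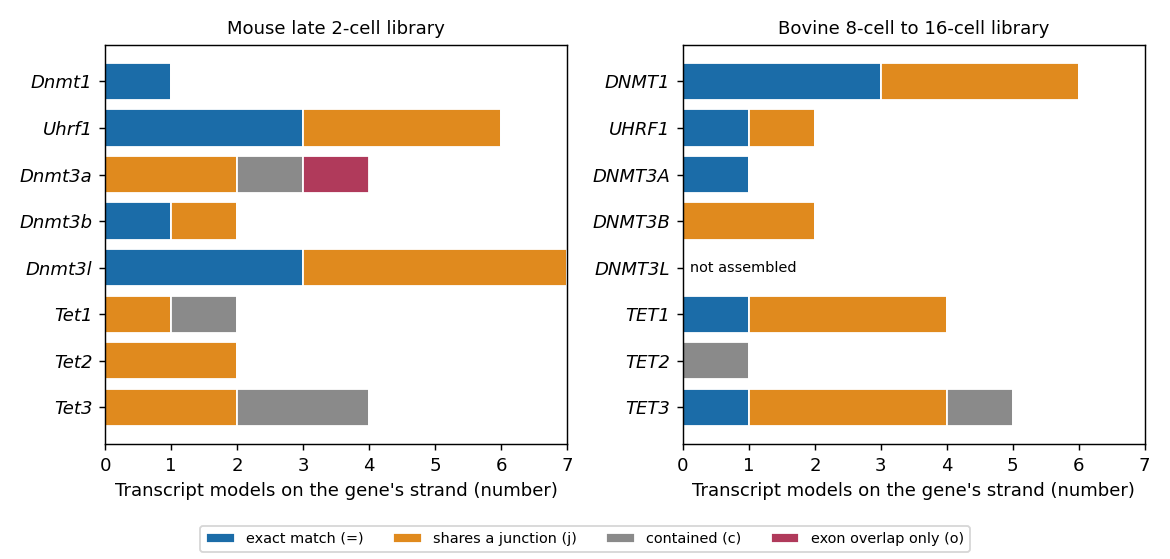
Number of transcript models on the gene's own strand (horizontal axis) for each member in the mouse library (left) and the bovine library (right), coloured by relation to the closest reference transcript. Dnmt3l leads in mouse with 7 models and DNMT1 in bovine with 6, and DNMT3L has none in bovine.

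The coding content of the mouse models differed between members. In GENCODE M21, the annotation used for mouse, the longest complete coding sequence of Dnmt1, Uhrf1, Dnmt3b and Dnmt3l was covered to 99.9%, 100%, 100% and 100% by a single model. The best single model covered 52.8% of that of Tet1, 35.2% of Dnmt3a, 33.2% of Tet3 and 0% of Tet2. At least 1 model with a whole annotated coding sequence, splice for splice, was found for 4 of 8 members, against 75.9% of 11458 mouse protein-coding genes with a model. Of the 28 models, 19 held the last codon of the longest coding sequence, 9 the first codon and 8 both, while 4 held no base of it. The maintenance genes, Dnmt3b and Dnmt3l were therefore assembled from start to stop codon, whereas Dnmt3a and the Tet genes were assembled in pieces. Coding length was not allowed for. It was 6117 bp for Tet1, 5760 for Tet2 and 5409 for Tet3. It was 4860 for Dnmt1, 2724 for Dnmt3a, 2580 for Dnmt3b, 2346 for Uhrf1 and 1263 for Dnmt3l.

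**Figure D2:**
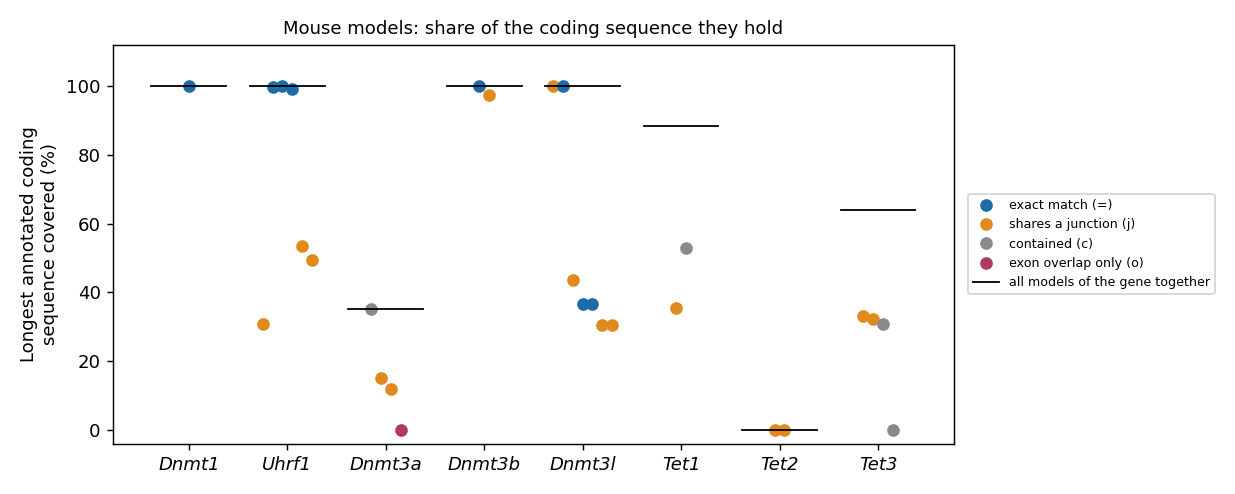
Share of the longest complete GENCODE M21 coding sequence (vertical axis, percent) covered by each mouse model (points, coloured by relation to the reference) and by all models of a gene together (black lines). Points reach 99.9% or 100% for Dnmt1, Uhrf1, Dnmt3b and Dnmt3l, and stay at or below 52.8% for Tet1, Dnmt3a, Tet3 and Tet2.

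Dnmt1, the maintenance methyltransferase, had 1 model in mouse, an exact match with 39 exons and 5214 bp on the minus strand of chromosome 9 (20907209 to 20952829, mm10). The nearest annotated start, at 20952845, lay 16 bases upstream of the model's and belongs to a transcript without an annotated coding sequence. The model's first exon also lay within that of the annotated coding transcript that starts at 20952979. The model began 42 bases upstream of that coding transcript's start codon. The transcript encodes 1620 residues. The model covered 4857 of these 4860 coding bases, first and last codon included. It therefore carried the start codon of the longer form. It also matched the whole of an annotated coding sequence of 1501 residues, which begins at a start codon further into the gene. Another annotated transcript starts at 20959888, 7059 bases upstream of the model, and encodes 1501 residues from a start codon further into the gene. No model carried its first exon or its junction. Annotated transcripts that start at 20952623 and 20952605 encode 1501 and 1502 residues from the same start codon as this upstream transcript. In mouse, oocytes are known to make an N-terminally shorter DNMT1 from a first exon of their own, and no model at this stage began at the upstream start. The sequences below are shown because they set the first exon that was assembled beside the one that was not: 15 bases of the first exon in lower case, then 15 bases of the common second exon in capitals, from GENCODE transcripts.
Dnmt1 first exon of the model (1 model): ccatgtccgcaggcgGCTCAAAGACTTGGA
Dnmt1 upstream annotated first exon (0 models): tgtgtcttccaaaagGCTCAAAGACTTGGA

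The promoter windows of these starts also differed in CpG dinucleotides, the substrate of the enzyme itself. In RefSeq windows of 300 bases (assembly GRCm38.p6, the same build as mm10), the one at 20952979 held 12 CpG and the one at 20959888 held 2. A further window, at the annotated start 20952623, spans 20952574 to 20952873 and so holds the 5′ end of the model. It held 33 CpG, a number reached by 8.56% of all windows, but the model began 206 bases upstream of that start. The motif searched was CG, which reads the same on both strands. Of 32851 mouse windows, 39.6% held at least 12 and 85.9% at least 2, and the median was 7. The sequences run from 150 bases before to 30 after the annotated start, minus strand, with CpG in capitals.
Dnmt1 start at 20952979, chr9:20952950-20953129: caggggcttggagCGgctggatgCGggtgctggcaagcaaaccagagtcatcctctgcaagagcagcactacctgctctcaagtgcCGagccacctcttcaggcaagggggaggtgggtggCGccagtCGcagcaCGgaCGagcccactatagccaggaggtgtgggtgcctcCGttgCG
Dnmt1 start at 20959888, chr9:20959859-20960038: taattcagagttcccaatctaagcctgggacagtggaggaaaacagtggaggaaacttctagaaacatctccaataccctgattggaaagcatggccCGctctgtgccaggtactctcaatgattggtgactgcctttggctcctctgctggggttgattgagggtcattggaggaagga

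Bovine DNMT1, on the minus strand of chromosome 7 (14681277 to 14741543, bosTau9), had 6 models with 33 to 41 exons. Of these, 5 began at 14730652 or 14730597 in the same first exon, and 3 of the 5 were exact matches. The other model began 10891 bases upstream, at 14741543. It had a first exon of 87 bp and a second of 72 bp that no other model carried, and joined the common exon of 37 bp from there. Ends also varied, over 10373 bases, with 4 distinct 3′ ends. The model from the upstream start and 1 model from the common start shared 31 introns, among them an intron of 7097 bp that no exact match had. It ran from inside an exon of 222 bp to inside an exon of 164 bp and passed over 8 whole exons. Relative to the exact match with the same 3′ end, 1551 spliced bases were missing, a multiple of 3. The catalytic part of DNMT1 is encoded towards the 3′ end of the gene in mammals, and whether these bases encode it was not tested here. An exon of 39 bp was present in 3 of the 6 models, 1 of them an exact match. A further model, not an exact match, held the same bases within a longer exon. In the longest exact match, 25 of 38 internal exons had, in order, the lengths of exons of annotated mouse Dnmt1.

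Uhrf1 encodes the reader that guides DNMT1 to newly replicated DNA. In mouse it lies on the plus strand of chromosome 17 (56303321 to 56323486) and had 6 models, all ending at 56323486. The 3 exact matches had 17 exons each and began at 56304245 or 56304313, in the same first exon. They covered 2337, 2346 and 2322 of 2346 coding bases, so the last 2 correspond to annotated proteins of 782 and 774 residues and the other lacks 9 coding bases of the longest form. The remaining 3 models were shorter. One began at the upstream annotated exon, at 56303443, and had 7 exons and 30.9% of the coding bases. The other 2 began inside the gene at 56313888 and 56314266, in exons of 378 bp and 779 bp that overlap no annotated exon, and held 53.6% and 49.3% of the coding bases. The 3 exact matches thus all used the downstream of the annotated start regions. Its RefSeq window held 33 CpG, a number reached by 8.56% of all windows, while the upstream window, with 1 nearby start, held 12. Both are shown because models began at each (plus strand, CpG in capitals).
Uhrf1 upstream start (1 model within 200 bp), chr17:56303187-56303366: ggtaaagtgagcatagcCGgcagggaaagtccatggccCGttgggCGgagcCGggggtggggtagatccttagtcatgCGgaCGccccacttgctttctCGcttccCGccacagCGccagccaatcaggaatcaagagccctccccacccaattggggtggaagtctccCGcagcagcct
Uhrf1 downstream start (3 models within 200 bp), chr17:56304163-56304342: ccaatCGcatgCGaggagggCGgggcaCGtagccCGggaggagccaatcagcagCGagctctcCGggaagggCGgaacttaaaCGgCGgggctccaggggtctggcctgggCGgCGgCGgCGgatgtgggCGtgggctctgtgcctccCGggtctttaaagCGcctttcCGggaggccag

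Bovine UHRF1, on the minus strand of chromosome 7 (19223870 to 19257053), had 2 models with 17 exons each. One was an exact match, and the other differed in a first exon of 126 bp that began 187 bases downstream. Of their 15 internal exons, 8 had the length of the corresponding exon in mouse. The mouse exact matches also had 17 exons.

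Dnmt3a, a de novo methyltransferase that is needed in the mouse oocyte, was assembled in mouse only from its 3′ part. Its gene spans 3806007 to 3914443 on the plus strand of chromosome 12. The 4 models began at 3899975, 3903817, 3904772 and 3910830, and the first of these starts lay 64.8 kb downstream of the longest coding sequence's first base. They had 9, 5, 4 and 2 exons. The first 3 shared an end at 3910317 and held 35.2%, 15.2% and 12% of the coding bases, and the fourth lay wholly beyond the stop codon. The first exons of the second and the third model, 68 bp and 73 bp, overlapped no annotated exon. No model reached the annotated starts of the long form (908 residues) or the short form (689 residues). Exons of the first model overlapped 63 bases of a 2-exon model of Gm31623 on the opposite strand.

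Bovine DNMT3A had 1 model, an exact match of 18 exons and 3488 bp on chromosome 11 (74050885 to 74068901, plus strand). Its 16 internal exons had, in order, the lengths of all 16 internal exons of the annotated mouse transcript that starts at 3891728. That transcript encodes the short form of 689 residues, known as DNMT3A2, which in mouse starts at a promoter inside the gene. The bovine model had as many exons as this short-form transcript, 18. The same 16 lengths also occurred, in order, among the 21 internal exons of an annotated mouse transcript of the long form (908 residues). The lengths therefore cannot tell the short form from a long form without its 5′ exons, and first exons were not compared. The mouse library had no model that reached the start of either form.

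Dnmt3b, the other catalytically active de novo enzyme, had 2 mouse models with 23 and 22 exons on chromosome 2 (plus strand). Both began at 153660897, which is 11.4 kb downstream of the outermost annotated start and 534 bases upstream of the start codon. Their first exon of 369 bp overlapped no GENCODE exon, although 1 of them matched a predicted RefSeq transcript exactly. Because an exact match carries it, this exon is not counted as unannotated below. That model held the whole coding sequence of 860 residues. The other lacked an exon of 62 bp and 3 further bases at another exon's edge. Since 62 is not a multiple of 3, the exon is shown here (GENCODE, plus strand, chr2:153662143-153662204).
Dnmt3b exon present in 1 of 2 models: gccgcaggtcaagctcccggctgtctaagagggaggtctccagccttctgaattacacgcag

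Bovine DNMT3B had 2 models on chromosome 13 (plus strand) and no exact match. The longer had 23 exons and 4206 bp, began at 62144872, and 16 of its 21 internal exons had the length of a mouse exon in order. The shorter began 2493 bases upstream, at 62142379, with 4 exons and 465 bp. Of its exons, 3 are exons of the longer model. Its first intron passed over 14 exons of the longer model, that model's first exon included. It ended at 62168529, before the longer model's end at 62176735.

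Dnmt3l had 7 mouse models, all on the plus strand of chromosome 10 and all ending at 78063622. They began at 5 positions. Models 1 and 2 began at 78041928 and 78042287, had 14 exons each and held the whole coding sequence of 421 residues. Both starts lay inside the span of Aire, the neighbouring gene on the opposite strand, in none of its exons, and Aire itself had no model. In mouse, oocytes are known to transcribe Dnmt3l from a promoter within Aire, upstream of the start used in embryonic stem cells. The next annotated starts, at 78049842 and 78049959, had 0 models within 200 bp, and the first of these lies 7.55 kb downstream of the start of model 2.

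The other 5 Dnmt3l models were 3′ forms. Models 4 and 5 were exact matches of 6 and 5 exons that began at 78055500, 165 bases into the annotated first exon that starts at 78055335, and held the annotated coding sequence of 126 residues. Model 3 began at 78053688 with a first exon of 20 bp, and models 6 and 7 began at 78057016 with first exons of 169 bp and 98 bp. These 3 first exons overlapped no annotated exon. All 5 held between 30.6% and 43.5% of the longest coding sequence, and all 5 held the annotated coding sequence of 126 residues. The 7 models therefore fell into a long form with the whole coding sequence of 421 residues and shorter forms from its 3′ part. Parts of the promoter windows are shown because models began within 200 bp of the first and the last annotated start but not of the one between them. Models 4 and 5 began 165 bases downstream of the last, beyond the stretch shown. The whole windows of 300 bases held 6, 4 and 3 CpG, reached by 56.4%, 68.6% and 76.7% of all windows. The stretches shown hold 4, 4 and 3 (plus strand, CpG in capitals).
Dnmt3l start at 78042287 (model 2), chr10:78042137-78042316: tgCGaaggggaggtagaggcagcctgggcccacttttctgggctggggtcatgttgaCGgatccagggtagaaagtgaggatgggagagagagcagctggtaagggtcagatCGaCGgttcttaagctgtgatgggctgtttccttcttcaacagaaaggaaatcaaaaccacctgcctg
Dnmt3l start at 78049842 (0 models), chr10:78049692-78049871: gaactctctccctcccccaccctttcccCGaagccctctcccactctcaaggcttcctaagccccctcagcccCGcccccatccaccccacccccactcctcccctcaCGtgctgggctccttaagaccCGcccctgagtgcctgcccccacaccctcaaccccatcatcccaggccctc
Dnmt3l start at 78055335 (models 4 and 5), chr10:78055185-78055364: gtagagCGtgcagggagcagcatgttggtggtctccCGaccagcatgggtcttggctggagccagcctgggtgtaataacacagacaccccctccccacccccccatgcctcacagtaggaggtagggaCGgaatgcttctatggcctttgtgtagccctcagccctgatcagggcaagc

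**Figure D3:**
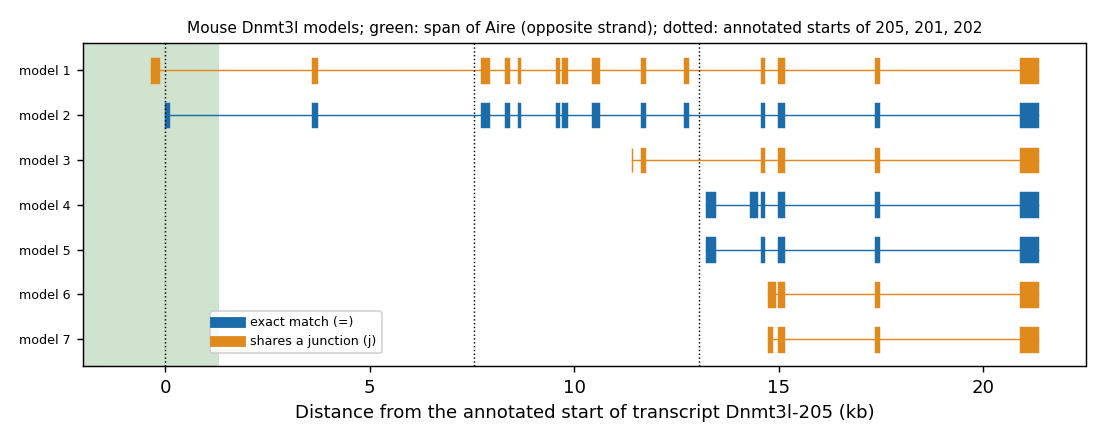
Exons (boxes) and introns (lines) of the 7 mouse Dnmt3l models by distance in kb from the annotated start used by model 2, coloured by relation to the reference; the green band is the span of Aire and dotted lines are annotated starts. Models 1 and 2 begin inside Aire with 14 exons, no model begins at the middle line, and models 3 to 7 hold 4 to 6 exons at the 3′ end.

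In the bovine library no model of any class carried the name DNMT3L, and none was named AIRE, ICOSL or ICOSLG. In mouse, Icosl, the gene on the other side of Dnmt3l, had 1 model. Of other bovine genes looked up by name around it, PFKL had 1 model at 144329794 to 144335967 on chromosome 1, C1H21ORF2 had 2, and TRPM2 had 0. Absence of a model does not show that a gene is silent.

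The Tet genes encode dioxygenases, of which TET3 is the form known to act on the paternal genome in the mouse zygote. Tet3 had 4 mouse models on the minus strand of chromosome 6, none of which spanned the whole gene. Models 1 and 2 began at 83460171, or 1087 bases further upstream than any start of the gene in GENCODE M21. Their first exon of 1165 bp extends the annotated one that starts at 83459084. Model 1 continued through an exon of 57 bp, and model 2 joined the third exon directly, a junction of no GENCODE Tet3 transcript. That annotated exon has 33 coding bases. No model began at the annotated start at 83456392, which lies 3779 bases downstream of the model start and encodes the longest form, with 1803 residues. Model 3, contained in the reference, held 7 exons between 83369129 and 83379917, and model 4 was a single exon of 4681 bp beyond the stop codon. Together the 4 covered 64% of the coding bases of the longest form. An oocyte form of mouse TET3 that lacks the CXXC DNA-binding domain is known to start upstream of the other forms. The junctions of models 1 and 2 are shown with 15 bases of the first exon in lower case and the next exon in capitals (GENCODE, minus strand).
Tet3 model 1, first exon to the 57 bp exon: cctcaacaatatgctGTGGAAATAAATGCT
Tet3 model 2, first exon to the third exon: cctcaacaatatgctACAGGCTCAGAGCTC

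Tet1 had 2 mouse models on the minus strand of chromosome 10 that did not overlap. Model 1 began at 62908999, 3 bases from the outermost annotated start, and held 4 exons with the start codon and 35.5% of the coding bases. Model 2 began at 62839498, in an exon of 1323 bp, and held 9 exons with the stop codon and 52.8%. A gap of 625 bases separated them, and together they covered 88.3%. Tet2 had 2 mouse models on the minus strand of chromosome 3, both from 133544302, with 3 and 2 exons and 632 bp and 484 bp. They ended 24.8 kb and 50.1 kb upstream of the start codon, so no coding base of Tet2 was assembled. No mouse Tet gene thus had a model with its whole coding sequence.

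**Figure D4:**
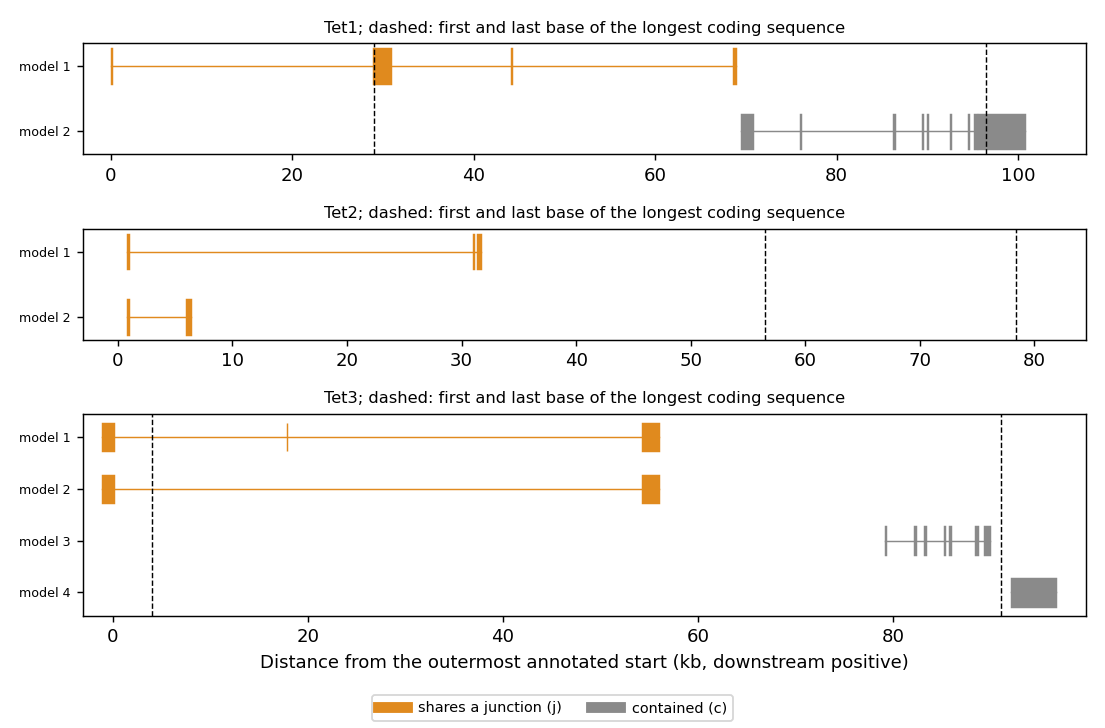
Exons (boxes) and introns (lines) of mouse Tet1, Tet2 and Tet3 models by distance in kb from the outermost annotated start; dashed lines mark the first and last base of the longest coding sequence. No model spans both dashed lines: those of Tet2 end before the first, and Tet1 and Tet3 are covered by separate 5′ and 3′ models.

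In the bovine library TET1 and TET3 each had an exact match. TET1, on the plus strand of chromosome 28, had 4 models. The exact match began at 24907388 and had 12 exons and 5606 bp. The other 3 all began at 24983282, which is 75.9 kb downstream, in an exon of 161 bp that the exact match lacks. Downstream of it, the longest of them had 10 exons and 7062 bp and shared 8 exons with the exact match. The 3 exons of the exact match that lie upstream of this start include one of 2027 bp. A shorter TET1 without its N-terminal part is known in mouse, and whether the bovine models encode such a form was not tested here.

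TET3, on the minus strand of chromosome 11, had 5 bovine models. The exact match began at 10649782 and had 11 exons and 4681 bp. Model 3 shared 10 of these exons and differed in its first exon, which was 1242 bp long and began 10.2 kb upstream. Models 1 and 2 began 11.1 kb upstream, at 10660912, in a first exon of 350 bp, and had 6 and 3 exons. Model 5, with 3 exons, began 5 bases from the exact match. All 5 carried the same second exon of 57 bp, the length of the exon that mouse model 1 carries and model 2 lacks. Of the 9 internal exons of the exact match, 8 had the lengths of mouse Tet3 exons in order. TET2 had 1 bovine model of 3 exons and 3854 bp on chromosome 6 (19937761 to 20039441, minus strand), contained in a reference transcript.

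**Figure D5:**
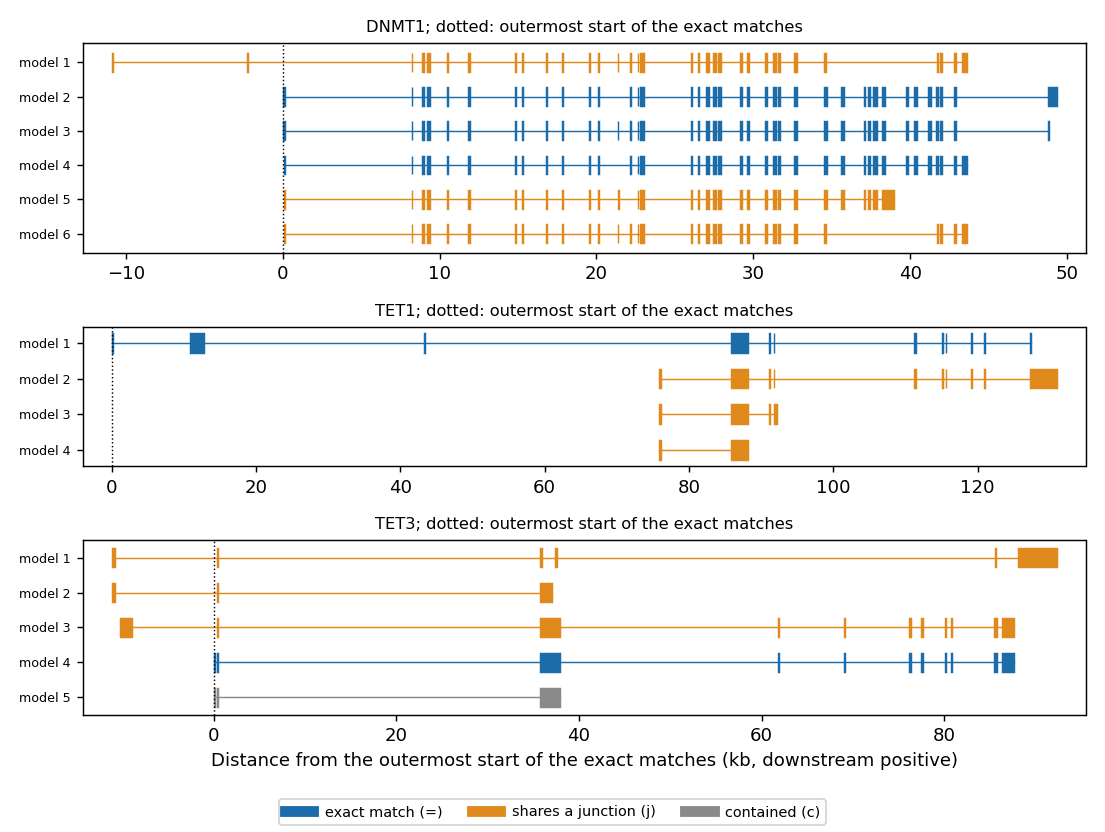
Exons (boxes) and introns (lines) of bovine DNMT1, TET1 and TET3 models by distance in kb from the outermost start of the gene's exact matches (dotted line). DNMT1 model 1 begins 10.9 kb upstream, TET1 models 2 to 4 begin 75.9 kb downstream, and TET3 models 1 to 3 begin 10.2 to 11.1 kb upstream.

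The series asks which embryo transcripts begin in transposable elements, so first exons without annotation were counted across members. In mouse, 18 spliced member models shared a splice site with the annotation without matching it exactly. Of these, 7 began in an unannotated first exon, against 28.3% of 12537 models of all genes. By another rule, a start over 100 bp from every annotated start, 13 of the 18 counted, against 57.5% of the same 12537 models. The 7 with an unannotated first exon were 3 of Dnmt3l, 2 of Dnmt3a and 2 of Uhrf1, all of them inside the gene. Genes with a model that began in an unannotated first exon numbered 3 of 8 members, against 16% of all genes. In bovine, where the library's own exact matches served as the annotation, 8 of 11 had such a first exon, against 26.2% of 9079. They were 3 of TET1, 3 of TET3, 1 of DNMT1 and 1 of UHRF1. Genes with such a model numbered 4 of 7, against 10.4%. Bovine DNMT3B and TET2 have no exact match and could not be judged by this rule. The same limit holds for the 10.4%, since 65.5% of the 13374 bovine genes had an exact match. Models of 1 gene share their start, as the 3 of TET1 do, so these models are not independent.

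Starts upstream of the gene were counted as well. In mouse, 3 of 8 members had a model that began upstream of the outermost GENCODE start, against 32.1% of 13052 genes. These were Tet3 by 1087 bases, Dnmt3l by 19 and Tet1 by 3. In bovine, DNMT1 and TET3, 2 of the 5 members with an exact match, had a model that began upstream of the exact matches, against 21.1% of 8756 genes. Upstream starts of over 10 kb were thus seen in the bovine members, relative to a reference made of exact matches only. Whether any of these starts lies in a transposable element was not tested.

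The wider pathway was read from a list of 42 symbols of methyl-DNA readers, base excision repair, imprint protection, cofactors and histone enzymes linked to DNA methylation. Mouse models were found for 37, where 52.2% of 21992 GENCODE protein-coding gene names had one. Bovine models were found for 39, and no such share was available for bovine. An exact match was found for 27 in mouse and 24 in bovine. Over all genes with a model, 72.5% in mouse and 65.5% in bovine had an exact match, which is close to the shares in the list. Found genes of the list had a median of 2 models in mouse and 3 in bovine, beside 2 over all genes in each. Most models in mouse were found for Kdm2b, a CpG-island-binding demethylase, and Ogt, the partner glycosyltransferase of TET proteins, with 8 each. They were followed by Nsd1, a histone H3 lysine methyltransferase, with 7, and by Setd2 and Ehmt2, of the same enzyme class, with 6 each. In bovine, MBD1, a methyl-CpG reader, and OGT had 8 each, the remodeller HELLS 7, and MBD2, another reader, and the imprint protector ZFP57 6 each.

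Without a mouse model were Tdg, the glycosylase that excises oxidized methylcytosine, Zbtb4 and Zbtb38, which bind methylated DNA, Cxxc4, and Dnmt3c, a rodent germline methyltransferase. Without a bovine model were ZBTB4, APOBEC1 and DNMT3C, the last a name of the rodent gene. TDG, ZBTB38 and CXXC4 had 1 model each in bovine. First exons without annotation were found in 8 of the 37 mouse genes, against 16% of all genes, and in 3 of the 39 bovine genes, against 10.4%. In mouse these were Nsd1 with 5 such models, Kdm2b with 4, Mbd5 and Ehmt2 with 3 each, Setd2 and Trim28 with 2 each, and Cdca7 and Usp7 with 1 each. In bovine they were USP7 with 2, and UHRF2 and ZNF445 with 1 each. Bovine genes without an exact match could hardly be judged by this rule, and 24 of the 39 had one. The bovine count is therefore not comparable with the mouse count. Dppa3, which shields the maternal genome from TET3 in the mouse zygote, had 1 model in mouse and 2 in bovine, all exact matches.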

How the data were processed

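Transcript models of 1 mouse and 1 bovine library were used as deposited. Per the file headers, StringTie was used by the authors to assemble them and each carries a gene name, a closest reference transcript, a class code and a start group. Per the submitters' processing notes the builds are mm10 and bosTau9. The aligner and filters are not given in the sources. The values are exon positions, with no count or score, so depth is unknown. A gene's models were those with class code =, c, k, m, n, j or o. Mouse models were compared with GENCODE M21, after 68.4% of 16388 exact spliced matches were found to have an identical intron chain there. Of the 8 exact matches of the mouse members, 5 had one. Whole coding sequences were matched splice for splice to complete protein-coding annotations. An unannotated first exon overlapped, on its strand, neither a GENCODE exon (mouse) nor an exact match from its library. The bovine annotation was the exact matches alone, since no bovine genome was used here. Model 5′ ends were not checked against other data. Structure functions were tested on simulated data. With 1 library per species no test was possible (Python 3.11.15, matplotlib 3.10.9). Members, lists and rules, which name every member, every pathway gene without a model or with an unannotated first exon, and the 5 with most models, were chosen with earlier results of these data known. Bovine Zfp445 was matched as ZNF445. The junction sequences of Dnmt3l are not reported here.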

Additional observations from a re-analysis of the deposited data

How the results depend on the processing

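No paired analysis was possible because each species had 1 library. Counting exact matches only left 4 of 8 mouse members with a model, with 8 models in mouse and 7 in bovine, and 24 bovine pathway genes. Counting a first exon as unannotated when its start lay over 100 bp from every annotated start gave 13 mouse models in place of 7, and asking for at least 100 bp upstream left 1 mouse member, Tet3, in place of 3. Of 21 alternative values, 15 stayed within 1.5 times the reported count, 6 moved further and 0 reversed. Bovine first exons were judged against exact matches alone, so reference isoforms that were not assembled counted as unannotated. Depth is unknown, so a gene without a model cannot be told from one read too rarely to be assembled.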

Other observations

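Bovine UHRF1 also had 2 models that are not on its own strand or lie in its introns, and these entered no count above. One, of 11 exons and 1557 bp, lay on the opposite strand (chromosome 7, 19230025 to 19246918, bosTau9). All 10 of its introns lay within 10 bp, at both ends, of introns of UHRF1 models, and 0 were identical to them. The bovine library held 89 models of this class (class code s). Whether this model reflects a transcript of that strand was not tested. The other was a single exon of 251 bp inside an intron, with no strand. In mouse, a 2-exon model of Gm31623 of 3633 bp on the opposite strand of Dnmt3a (chromosome 12, 3894395 to 3900455, mm10) overlapped the 5′ edge of the span of the Dnmt3a models and lay mostly outside it.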
